A study of Homo sapiens with 18 samples.

Results

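The comparison described here set the PRMT5 inhibitor GSK3326595 directly against the CDK4/6 inhibitor palbociclib in CHL1 melanoma cells after 72 hours of treatment. It rests on 4 of the 18 RNA-seq libraries of the series, namely the 2 CHL1 libraries labelled PRMT5 inhibition (PRMT5i, 500 nM GSK3326595) and the 2 labelled CDK4/6 inhibition (CDK4/6i, 1 µM palbociclib), which were chosen by their labels and not by any measured value. CHL1 is an established human melanoma line that is wild type for BRAF and NRAS. Vehicle-treated CHL1 cells (DMSO, 72 hours, n = 2) served as the baseline. CHL1 cells kept in palbociclib for 6 days (n = 2) entered no contrast. They did enter the scaling, the choice of genes, the GC curves and the estimate of the spread. The same pair of drugs in A375, a BRAF-mutant melanoma line, was the comparison most like it (n = 2 per group at 72 hours). The labels give GSK3326595 for the A375 PRMT5i libraries, but the library names carry the letters CTX, which the labels do not explain, so the A375 values are those of the libraries as labelled. Each line stands for 1 tumour, and the labels do not say whether replicates were separate cultures, so p-values measure the spread between these libraries, which may be technical.

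CDK4 and CDK6, together with a D-type cyclin, phosphorylate the retinoblastoma protein RB, which releases E2F transcription factors to switch on the genes for DNA replication, while the genes for mitosis follow later in the cycle through the MuvB complexes. Palbociclib blocks the kinases and holds RB-positive cells in G1. PRMT5, working with its partner WDR77, places symmetric dimethylarginine on spliceosomal Sm proteins, histones and other targets, and its loss is known for changing splice site choice, including that of MDM4. The comparison therefore asks which transcripts separate a kinase block at the G1 checkpoint from inhibition of an arginine methyltransferase in the same cells.

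The 4 libraries held 27588432 and 28223909 counts under CDK4/6i and 37424081 and 35536814 under PRMT5i, so 3 counts corresponded to between 0.0941 and 0.103 CPM (counts scaled to library size). Some melanocyte lineage transcripts were found in all CHL1 libraries of 72 hours, with MITF between 59.0 and 135 CPM and DCT between 33.5 and 133 CPM. The pigment genes PMEL (at most 1.69 CPM) and TYR (at most 0.0674 CPM) were close to absent, and TYRP1 lay between 0.67 and 3.77 CPM. The lineage markers SOX10 and MLANA have no entry under these symbols in the deposited counts. Of the markers of other cell types, KRT5 and PDGFRA were at 0 in all 6 libraries and DCN reached at most 0.069 CPM. The summed level of the 15 such markers in the table was 29.2 and 26.3 CPM in the control, 45.2 and 42.7 CPM under CDK4/6i and 52.3 and 48.1 CPM under PRMT5i, most of it LUM and PTPRC, and its part in the results was not tested.

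The PRMT5i libraries stood apart by base composition from the other CHL1 libraries and from the A375 libraries of 72 hours. The A375 libraries of 6 days, of which 2 also carry a GC trend, were not part of this comparison. Genes were divided into 10 classes of equal size by the GC content of their longest annotated transcript, and the median log2 deviation of the GC-richest class (above 61.32% GC) minus that of the poorest class (below 37.95% GC) was −2.85 and −2.22 in the 2 PRMT5i libraries. It was 0.45 and 0.11 in the CDK4/6i libraries, 0.04 and 0.01 in the controls, and between −0.19 and 0.26 in the 6 A375 libraries of 72 hours. The origin of this trend was not tested. The differences between the drugs are therefore given with a correction, in which a smooth curve of each library's deviation on GC content entered the model as an offset, and the uncorrected value is set beside it. The correction removes any difference that runs with GC content, whatever its origin, and it could be made for 12835 genes that averaged at least 1 CPM and had a GC value.

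**Figure D1:**
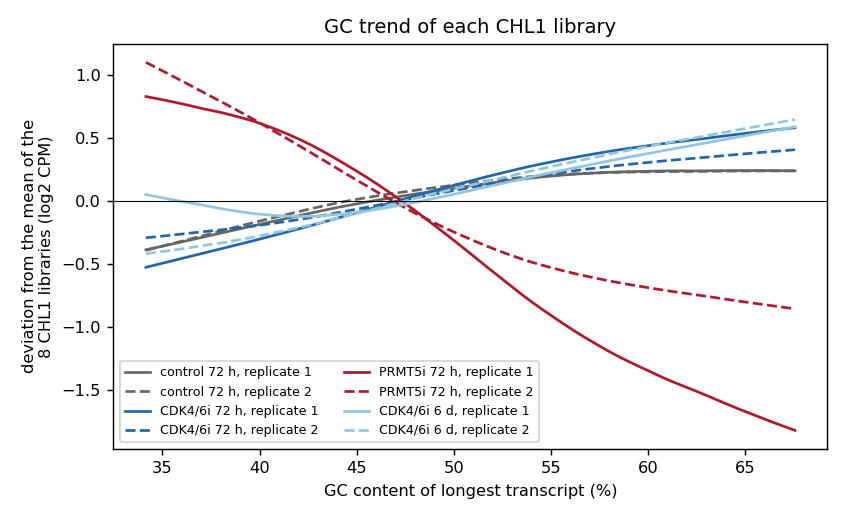
Smoothed deviation of each of the 8 CHL1 libraries from their mean (log2 CPM, vertical axis) against transcript GC content (percent, horizontal axis), 1 line per library, coloured by group. The 2 PRMT5i curves fall steeply from GC-poor to GC-rich genes, while the other 6 curves stay nearer to level.

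Without the correction, 11958 of 20705 genes (57.8%) were differentially expressed (DEGs, edgeR adjusted p under 0.05) between the drugs, 5871 (28.4%) up-regulated and 6087 (29.4%) down-regulated under PRMT5i relative to CDK4/6i. The median log2 difference ran from 1.23 in the GC-poorest class of genes, where 87.4% were up-regulated, to −1.60 in the richest, where 93.1% were down-regulated. On the 12835 genes that could be corrected, 9774 (76.2%) were DEGs without the correction. With it, 6489 of them (50.6%) were DEGs, 3271 (25.5%) up-regulated and 3218 (25.1%) down-regulated, and the medians of the GC classes lay between −0.10 and 0.06. The median size of a called log2 difference on these genes fell from 1.17 to 0.74. A total of 4276 genes were called in the same direction both ways (2135 up-regulated/2141 down-regulated), which is 65.9% of the corrected calls and 44.3% of the uncorrected calls among the same genes. A further 616 genes changed sides, 404 from lower to higher and 212 from higher to lower. The number of corrected calls dropped to 4105 when CDK4/6i replicate 1 was left out.

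**Figure D2:**
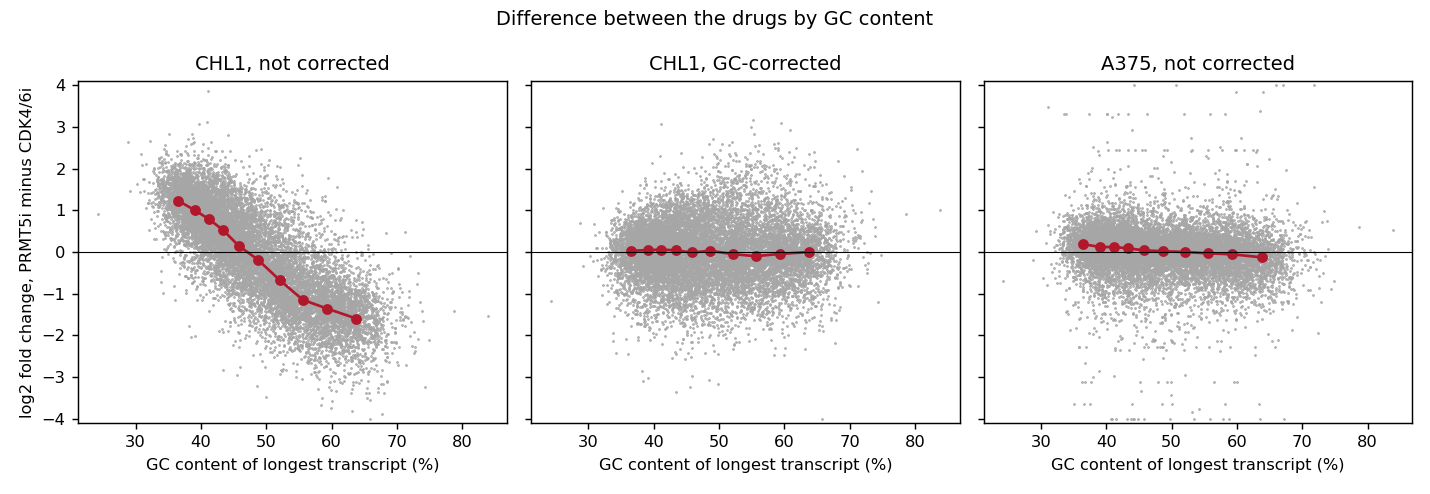
Log2 difference PRMT5i minus CDK4/6i (vertical axis, points clipped at −4 and 4) of each gene against transcript GC content (percent, horizontal axis), in CHL1 without and with the GC correction and in A375, with red marks for the medians of the GC classes. The medians slope from 1.23 to −1.60 in the uncorrected CHL1 panel and lie between −0.10 and 0.06 in the corrected one.

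The 5 genes with the most marked change of sides illustrate what the correction does. MEX3D, an RNA-binding protein gene with 69.1% GC in its transcript, read 37.6 and 28.7 CPM under CDK4/6i and 14.7 and 21.7 CPM under PRMT5i, a log2 difference of −0.86 that became 0.99 ± 0.17 (SE) once genes of like GC content were taken as the reference. SH2B2, SLC7A5P1 and the microRNA genes MIR3648 and MIR3687, of 69.3% to 83.9% GC, went from between −1.54 and −0.95 to between 0.89 and 1.01. Without PRMT5i replicate 1 the corrected values of MIR3648, MIR3687 and SLC7A5P1 were 0.59, 0.55 and 0.60, and the last pair were not called. MIR3687 was also not called without CDK4/6i replicate 2 (0.63, adjusted p = 0.107), nor SLC7A5P1 without either CDK4/6i replicate (adjusted p = 0.103 and 0.179). In all 5 the reads themselves were fewer under PRMT5i, and the corrected direction is relative to other GC-rich genes.

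Of the transcripts of the palbociclib targets and their partners, CDK4 and CCND1 were lower under PRMT5i than under CDK4/6i with and without the correction. CDK4 (chr12:58141510-58149796, minus strand, GRCh37) gave 70.6 and 59.7 CPM under CDK4/6i and 20.3 and 28.4 CPM under PRMT5i, against 75.0 and 59.4 CPM in the control. The 2 groups did not overlap, and the corrected log2 difference was −0.84 ± 0.15 (SE, n = 2 per group, edgeR adjusted p = 0.00168) beside −1.42 uncorrected. Relative to the control, CDK4 was lower under PRMT5i (−0.89, adjusted p = 0.00234) and differed by −0.05 under CDK4/6i (adjusted p = 0.835). CDK6, its close relative, was 9.07 and 9.13 CPM under CDK4/6i and 15.1 and 13.0 CPM under PRMT5i, and the sign of its difference depended on the correction, from 0.63 to −0.32 (95% interval −0.70 to 0.06, adjusted p = 0.143).

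CCND1, which encodes the cyclin D1 partner of both kinases (chr11:69455924-69469242, plus strand, GRCh37), was highest under CDK4/6i. It gave 754 and 738 CPM there, 333 and 394 CPM under PRMT5i and 287 and 304 CPM in the control, with no overlap between the groups. The corrected log2 difference between the drugs was −0.66 ± 0.11 (adjusted p = 0.00133), and palbociclib raised it over the control by 1.35 (adjusted p = 0.000382). Its difference between PRMT5i and the control was 0.69 with the correction (adjusted p = 0.00214) and 0.30 without it (adjusted p = 0.117). RB1 itself showed a corrected difference of 0.05 with a 95% interval from −0.21 to 0.31, although its GC-poor transcript was higher under PRMT5i in the uncorrected fit (1.23). CDKN2C, which encodes the CDK4/6 inhibitor protein p18, was up-regulated under PRMT5i by 1.68 ± 0.16 (adjusted p = 7.37e-05) and by 0.46 uncorrected. RBL1, the gene of the RB relative p107, was higher under PRMT5i by 0.48 ± 0.12 (adjusted p = 0.00883, and 0.0574 and 0.0576 without CDK4/6i replicate 1 or 2). Across the 12 members of the CDK4/6-RB list, 3 were higher and 3 lower, a share near the 50.6% of all genes tested.

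Of PRMT5 and its partners WDR77, CLNS1A and RIOK1, 3 passed the test without the correction and none with it. PRMT5 (chr14:23389734-23398617, minus strand, GRCh37) gave 7.21 and 6.91 CPM under CDK4/6i and 3.98 and 4.28 CPM under PRMT5i, and its log2 difference was −0.77 without the correction (adjusted p = 0.0055) and −0.19 with it (95% interval −0.56 to 0.18, adjusted p = 0.353). WDR77, the obligate partner, and the substrate adaptors CLNS1A (pICln) and RIOK1 showed corrected differences of −0.10, 0.28 and 0.16, none of which passed the test, beside −0.19, 1.18 and 0.81 uncorrected, of which the last pair passed it. COPRS, an adaptor that directs PRMT5 to histones, was higher by 0.56 (adjusted p = 0.0414), from −0.40 uncorrected, and was not called when either CDK4/6i replicate or PRMT5i replicate 1 was left out (0.17 without the latter, adjusted p = 0.356). In the list of the methylosome and the methionine salvage enzymes, 3 of 12 members were higher and 3 lower, a share near the 50.6% of all genes tested. Among the 3 higher ones were ENOPH1 (0.90 ± 0.14) and APIP (0.74 ± 0.13), enzymes of the methionine salvage pathway, while MRI1 of the same pathway was lower (−0.59 ± 0.17), a call lost without either CDK4/6i replicate or PRMT5i replicate 1 (−0.38 without the latter). PRMT1, the main asymmetric arginine methyltransferase, gave 121 and 111 CPM under CDK4/6i and 25.6 and 44.7 CPM under PRMT5i (corrected −0.66 ± 0.16, adjusted p = 0.00798, and 0.0612 without PRMT5i replicate 1).

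Cell cycle genes were divided into lists by phase. Because these are bulk libraries, fewer cycling cells and less transcript per cell cannot be told apart. The promoters of 4 members that were DEGs both ways are shown because they carry the E2F-type letters (TTTCCCGC, TTTGGCGC, TTTCGCGC or TTTGCCGC) or the CHR letters of MuvB targets (TTTGAA or TTCGAA), searched on both strands, and no E2F-type sequence contains a CHR sequence. Each is the 250 bases before a RefSeq transcript start in GRCh38.p14, on the strand of the gene, with matches in capitals. Where a gene has several starts, the one with the most matches is shown. Their matches therefore cannot be set beside the shares over all windows. The promoters are those of CDK1 (chr10:60778228-60778477, plus strand), RBL1 (chr20:37095998-37096247, minus strand), CDC25A (chr3:48188418-48188667, minus strand) and FANCC (chr9:95317710-95317959, minus strand).
CDK1: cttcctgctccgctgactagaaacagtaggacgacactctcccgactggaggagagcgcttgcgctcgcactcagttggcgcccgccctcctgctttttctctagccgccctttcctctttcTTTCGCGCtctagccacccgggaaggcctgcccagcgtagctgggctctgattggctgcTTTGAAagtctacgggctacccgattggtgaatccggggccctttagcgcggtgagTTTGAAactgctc
RBL1: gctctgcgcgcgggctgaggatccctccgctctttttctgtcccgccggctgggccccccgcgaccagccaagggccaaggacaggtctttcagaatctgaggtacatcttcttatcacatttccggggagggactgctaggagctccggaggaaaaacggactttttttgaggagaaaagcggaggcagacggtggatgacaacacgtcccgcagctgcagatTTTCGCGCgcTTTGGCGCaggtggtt
CDC25A: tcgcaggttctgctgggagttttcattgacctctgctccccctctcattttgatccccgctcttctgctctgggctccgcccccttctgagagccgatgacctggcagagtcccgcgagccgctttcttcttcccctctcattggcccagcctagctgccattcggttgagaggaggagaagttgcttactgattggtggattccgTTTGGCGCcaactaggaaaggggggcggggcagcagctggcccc
FANCC: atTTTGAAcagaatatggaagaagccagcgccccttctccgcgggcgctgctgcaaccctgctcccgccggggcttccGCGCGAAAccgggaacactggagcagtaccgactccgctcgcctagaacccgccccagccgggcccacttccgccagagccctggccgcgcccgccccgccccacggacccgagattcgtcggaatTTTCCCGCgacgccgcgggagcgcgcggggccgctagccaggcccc

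The CDK1 promoter held 1 E2F-type match 128 bases before the start and CHR matches at 69 and 13 bases. RBL1 held E2F-type matches at 26 and 16 bases, CDC25A 1 at 44 bases, and FANCC 2, at 172 bases (reverse strand) and 46 bases, besides a CHR match at 248 bases. Over all 35116 RefSeq windows of 300 bases (250 before to 50 after the start), 3.31% held an E2F-type match and 16.4% a CHR match, and over the 15049 windows of genes in the GC-corrected fit 4.76% and 12.2%. The E2F-type letters were found in 46.4% of the 28 windows of origin licensing genes and in 36.1% of the 36 windows of replication fork genes. The CHR letters were found in 64.9% of the 37 windows of kinetochore and kinesin genes. Among the genes called higher under PRMT5i both ways, 5.53% of windows held an E2F-type match and 17.1% a CHR match. Among those called lower the shares were 3.93% and 9.5%. These sets also differ in transcript GC content, because being called both ways includes the uncorrected call. Without the correction, 87.4% of the GC-poorest class and 0.312% of the richest were up-regulated. The part of base composition in these shares was not tested. A match describes letters and not a bound site.

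Genes of mitosis were higher under PRMT5i with and without the correction. Of 16 mitotic kinases and passenger proteins, 13 were up-regulated and none down-regulated under PRMT5i after correction (background 25.5% and 25.1% of all genes tested), with a median log2 difference of 0.67 and the lowest member at −0.09, and 10 were up- and 1 down-regulated without it (background 28.4% and 29.4%). Their summed level was 843 and 850 CPM under CDK4/6i, 1774 and 1608 CPM under PRMT5i and 1342 and 1199 CPM in the control. These sums are not corrected for GC content. Against the control with the correction, 13 of the 16 were lower under CDK4/6i and none higher (median −0.58, background 8.69% and 8.48% of all 12835 genes), and under PRMT5i 4 were higher and none lower (median 0.06, background 17.9% and 18%). TTK, the spindle checkpoint kinase MPS1, gave 65.4 and 68.7 CPM under CDK4/6i and 336 and 279 CPM under PRMT5i (corrected 1.36 ± 0.13, adjusted p = 6.9e-05). CDC25A, the phosphatase that activates CDK2 at the G1/S transition, gave 30.7 and 31.2 CPM and 50.7 and 41.6 CPM (corrected 1.15 ± 0.18). The groups did not overlap in either gene.

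Of 38 kinetochore and kinesin genes, 29 were up- and 1 down-regulated after correction (median 0.54, background 25.5% and 25.1%). Without the correction 29 were up- and 3 down-regulated (background 28.4% and 29.4%). The number up-regulated was 17 without CDK4/6i replicate 1 and 18 without CDK4/6i replicate 2. The summed level rose from 2564 and 2666 CPM under CDK4/6i to 7276 and 5899 CPM under PRMT5i. Against the control, 29 of the 38 were lower under CDK4/6i and none higher (background 8.69% and 8.48%). Under PRMT5i 4 were higher and 8 lower (background 17.9% and 18%). These contrasts share their control libraries with each other. CENPO, a subunit of the constitutive centromere network, gave 23.9 and 22.6 CPM under CDK4/6i and 53.5 and 53.7 CPM under PRMT5i (corrected 2.07 ± 0.13, adjusted p = 2.88e-05), although it overlaps ADCY3 and PTRHD1 on the opposite strand and the library kit is not stated to keep strand. CENPP of the same network was higher by 1.95 ± 0.20.

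The cyclin list held members on both sides. CCNA2, cyclin A2, gave 22.9 and 24.3 CPM under CDK4/6i, 108 and 90.2 CPM under PRMT5i and 63.7 and 52.0 CPM in the control (corrected 1.36 ± 0.15, adjusted p = 0.000125). CDK1, the mitotic kinase, gave 51.3 and 59.9 CPM and 298 and 266 CPM, and the corrected difference of 1.16 ± 0.14 (adjusted p = 0.000238) was 2.34 without correction, its transcript being 37% GC. CKS1B, a small subunit that binds CDKs, ran the other way, with 47.5 and 49.3 CPM under CDK4/6i and 34.5 and 30.7 CPM under PRMT5i (corrected −1.07 ± 0.11, adjusted p = 0.000123). In all, 4 of 9 members were higher and 1 lower, beside 25.5% and 25.1% of all genes tested.

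Of 15 E2F factors and partners, 10 were higher and 1 lower under PRMT5i (median 0.50, background 25.5% and 25.1%). Under CDK4/6i, 7 were lower than control (background 8.69%). LIN52 (0.85 ± 0.11) and LIN9 (0.84 ± 0.13), subunits of MuvB, were higher both ways. E2F3 gave 211 and 221 CPM under CDK4/6i and 338 and 281 CPM under PRMT5i (corrected 0.36, adjusted p = 0.0279), and was not called when either CDK4/6i replicate or PRMT5i replicate 1 was left out (adjusted p from 0.104 to 0.163). E2F2 gave 31.4 and 31.9 CPM under CDK4/6i and fewer reads, 19.4 and 26.6 CPM, under PRMT5i, so that it was higher by 0.68 (adjusted p = 0.0131) only relative to genes of like GC content and differed by −0.46 without the correction. E2F2 was not called without CDK4/6i replicate 1 (adjusted p = 0.083) or PRMT5i replicate 1 (0.0576).

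DNA replication genes were less uniform. Of 24 origin licensing genes, 9 were higher and 4 lower (median 0.25). Of 29 replication fork genes with a GC value, 10 were higher and 3 lower (median 0.28). The shares over all genes tested were 25.5% higher and 25.1% lower. The uncorrected median of all 30 fork genes was −0.15. GMNN, which encodes geminin, the inhibitor of re-licensing, gave 22.3 and 26.7 CPM under CDK4/6i, 113 and 99.8 CPM under PRMT5i and 52.3 and 45.5 CPM in the control (corrected 1.61 ± 0.14, 3.06-fold, adjusted p = 5.96e-05). PRIM1, the primase subunit, gave 9.93 and 11.5 CPM and 50.3 and 34.3 CPM (corrected 1.47 ± 0.17). POLE2, a subunit of DNA polymerase epsilon, was higher by 1.41 ± 0.13. In each of these 3 genes CDK4/6i lay below the control (−0.90, −1.30 and −0.79).

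CDC45, the helicase cofactor, had nearly the same read counts under both drugs, 30.1 and 29.3 CPM against 30.7 and 35.2 CPM, below 51.2 and 49.9 CPM in the control. Its log2 difference was 0.15 (adjusted p = 0.442) without and 0.74 ± 0.10 (adjusted p = 0.000396) with the correction. MCM4, a subunit of the replicative helicase, was lower under PRMT5i, at 87.1 and 83.7 CPM against 146 and 144 CPM (corrected −0.84 ± 0.13). CHAF1B, of the chromatin assembly factor CAF-1, was also lower, at 61.7 and 67.7 CPM against 132 and 137 CPM (−0.91 ± 0.22, adjusted p = 0.00768, and 0.0551 without PRMT5i replicate 1), as was the fork protection gene TIMELESS (−0.70 ± 0.10).

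Of 11 genes for the synthesis of deoxynucleotides, 6 were higher and 2 lower, a total that fell to 3 called without CDK4/6i replicate 1, 4 without CDK4/6i replicate 2 and 5 without PRMT5i replicate 1. TYMS, thymidylate synthase, was higher by 1.01 ± 0.17. Of 23 homologous recombination and Fanconi genes, 14 were higher and none lower (median 0.58). Both lists stand beside 25.5% higher and 25.1% lower of all genes tested. FANCC, of the Fanconi core complex, gave 47.8 and 48.7 CPM under CDK4/6i and 81.4 and 84.5 CPM under PRMT5i (corrected 1.39 ± 0.11, adjusted p = 4.87e-05). DMC1, the meiotic recombinase, was at only 0.414 and 0.266 CPM against 2.79 and 3.17 CPM (2.30 ± 0.34).

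Replication-dependent histone genes, whose transcripts normally end without a poly(A) tail and are made in S phase, turned with the correction. Of 68 genes in the table, none was up- and 30 were down-regulated under PRMT5i without it (median −0.58, background 28.4% and 29.4%). Of the 51 with a GC value and enough reads, 27 were up- and 9 down-regulated with the correction (median 0.48, background 25.5% and 25.1%). The summed level was 1575 and 1515 CPM under CDK4/6i, 855 and 1257 CPM under PRMT5i and 4458 and 3611 CPM in the control. Both drugs lowered the group relative to the control after correction. Under CDK4/6i 47 of the 51 genes were lower (background 8.69%), and under PRMT5i 49 were (background 18%). The correction thus turned the order of the drugs and not the direction against the control. HIST1H3E (−1.44 ± 0.19) and HIST1H2AC (−1.27 ± 0.17) were lower under PRMT5i both ways. These genes are near-identical copies of each other and the share of reads each received is uncertain. Of 9 replication-independent histone genes, 5 were higher and none lower, H3F3B by 1.10 ± 0.21 and H2AFZ, of the variant H2A.Z, by 1.09 ± 0.19.

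**Figure D3:**
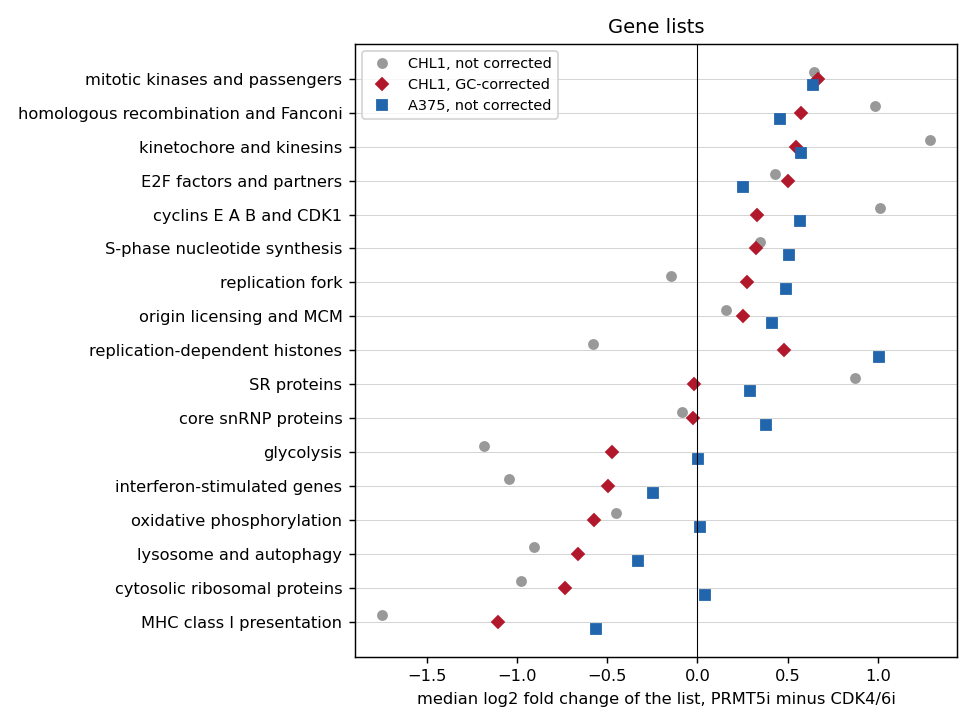
Median log2 difference PRMT5i minus CDK4/6i (horizontal axis) of 17 gene lists (vertical axis), with separate marks for CHL1 without correction, CHL1 with the GC correction and A375. Mitotic kinases lie near 0.65 in all 3, replication-dependent histones turn from −0.58 to 0.48 with the correction, and ribosomal proteins and oxidative phosphorylation lie below 0 in CHL1 and near 0 in A375.

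MHC class I antigen presentation, the machinery that loads peptides and displays them to T cells, was lower under PRMT5i than under CDK4/6i. Of 15 members, 13 were down-regulated under PRMT5i and none up-regulated after correction (median −1.11, background 25.1% and 25.5%). Without the correction, 12 were down-regulated and none up-regulated (median −1.75, background 29.4% and 28.4%). The sums were 1647 and 1562 CPM under CDK4/6i, 998 and 726 CPM under PRMT5i and 1420 and 1319 CPM in the control. Relative to the control, 10 of 15 were lower under PRMT5i (background 18%), while 4 were higher under CDK4/6i (background 8.48%). HLA-B, a heavy chain, gave 21.1 and 18.03 CPM under CDK4/6i, 5.08 and 4.62 CPM under PRMT5i and 11.9 and 9.33 CPM in the control (corrected −1.41 ± 0.22, adjusted p = 0.000764), with the reservation that HLA genes share sequence. PSMB9, an immunoproteasome subunit, was lower by 1.45 on the log2 scale but stood near 1 CPM, and was called only when CDK4/6i replicate 1 was the library left out (adjusted p from 0.062 to 0.112 without any other).

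Of 25 interferon-stimulated genes, 15 were lower under PRMT5i and 2 higher (median −0.49), with 8 lower when either CDK4/6i replicate was left out. The shares over all genes tested were 25.1% lower and 25.5% higher. STAT2, which carries the type I interferon signal to the nucleus, gave 75.0 and 73.3 CPM under CDK4/6i, 14.3 and 19.2 CPM under PRMT5i and 37.9 and 40.9 CPM in the control (corrected −1.69 ± 0.14, adjusted p = 4.97e-05). The control lay between the drugs, above it CDK4/6i (0.92, adjusted p = 0.00311) and below it PRMT5i (−0.77, adjusted p = 0.00304). OASL, an antiviral protein gene, was lower by 1.78 ± 0.38 on the log2 scale. IFIH1, the RNA sensor MDA5, was the opposite case, at 12.3 and 13.0 CPM against 27.6 and 27.3 CPM (0.57 ± 0.14, adjusted p = 0.00697, and 0.0526 without CDK4/6i replicate 1).

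Of 31 lysosome and autophagy genes, 17 were lower under PRMT5i and 4 higher (median −0.66, background 25.1% and 25.5%). Against the control, 11 were higher and 1 lower under CDK4/6i (background 8.48% and 8.69%). Under PRMT5i, 6 were higher, near the background of 17.9%, and 12 lower (background 18%). NPC2, the lysosomal cholesterol carrier, gave 29.3 and 25.04 CPM under CDK4/6i, 11.8 and 10.54 CPM under PRMT5i and 16.8 and 14.9 CPM in the control (corrected −1.70 ± 0.17). CTSZ, a lysosomal protease, was lower by 1.60 ± 0.15 on the log2 scale. ATP6V1H and ATP6V1C1, subunits of the proton pump, were higher by 0.80 ± 0.10 and 0.44 ± 0.12, the latter not called when either CDK4/6i replicate or PRMT5i replicate 1 was left out (adjusted p from 0.0527 to 0.0832).

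Cytosolic ribosomal protein transcripts were lower under PRMT5i. Of 71 cytosolic ribosomal protein genes, 49 were down- and 2 up-regulated (median −0.74), and 54 and 2 of 82 without correction (median −0.98). Their summed level was 19290 and 16750 CPM under CDK4/6i and 18560 and 15600 CPM in the control, and 9051 and 9285 CPM under PRMT5i. The median difference from the control was 0.12 under CDK4/6i and −0.61 under PRMT5i. Under PRMT5i 45 of the 71 were lower than control and 1 higher (background 18% and 17.9%). RPLP1, of the ribosomal stalk, gave 371 and 336 CPM under CDK4/6i and 86.8 and 138 CPM under PRMT5i (corrected −1.77 ± 0.21, adjusted p = 0.000188). RPS20 was lower by 1.65 ± 0.13 on the log2 scale. RPL21 was higher by 0.92 ± 0.20 (0.60 without PRMT5i replicate 1), and ribosomal protein genes have many processed copies that can share their reads. Of 60 mitochondrial ribosomal protein genes, 16 were higher and 21 lower (median −0.11), and 7 and 11 without CDK4/6i replicate 1. Of 39 translation initiation factors, 14 were lower, 5 higher and 20 not called, and 9 were lower and 3 higher without CDK4/6i replicate 1. The shares over all genes tested were 25.5% higher and 25.1% lower. EIF4G2 gave 372 and 353 CPM under CDK4/6i against 267 and 200 CPM under PRMT5i (−1.50 ± 0.15).

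Genes of oxidative phosphorylation and glycolysis were also more often lower than higher under PRMT5i, beside 25.1% lower and 25.5% higher of all genes tested. Of 65 nuclear genes of oxidative phosphorylation, 43 were lower under PRMT5i and 5 higher (median −0.57), with summed levels of 4756 and 4431 CPM under CDK4/6i and 3607 and 3480 CPM under PRMT5i. COX7C, a subunit of cytochrome oxidase, gave 123.4 and 114.2 CPM and 78.9 and 66.9 CPM (corrected −1.72 ± 0.15, adjusted p = 5.58e-05), and UQCRQ, of complex III, was lower by 1.58 ± 0.15 on the log2 scale. NDUFC1, of complex I, was higher by 1.82 ± 0.12, although its locus overlaps NAA15 on the opposite strand. Of 17 glycolysis genes, 12 were lower under PRMT5i, and 6 when either CDK4/6i replicate was left out. SLC2A1, the glucose transporter GLUT1, gave 338 and 349 CPM under CDK4/6i, 64.7 and 112 CPM under PRMT5i and 117 and 128 CPM in the control (corrected −1.23 ± 0.18, adjusted p = 0.000547). It was raised by CDK4/6i over the control (1.46, adjusted p = 0.00165) and differed by 0.23 under PRMT5i (adjusted p = 0.352). PGK1, the phosphoglycerate kinase, was lower under PRMT5i than under CDK4/6i by 1.15 ± 0.12 on the log2 scale.

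Of 15 mitochondrially encoded genes, 9 were lower under PRMT5i after correction (median −0.82, background 25.1%). Without the correction 7 were lower and 3 higher (background 29.4% and 28.4%). The ribosomal RNAs varied most between replicates. MT-RNR1 gave 158 and 100 CPM under CDK4/6i and 29.4 and 3.74 CPM under PRMT5i (corrected −3.25 ± 0.80, adjusted p = 0.00805), against 15.9 and 32.6 CPM in the control. MT-RNR2 gave 296 and 193 CPM and 117 and 13.9 CPM (−2.54 ± 0.73), and its adjusted p of 0.0166 became 0.0657 without CDK4/6i replicate 1. MT-RNR1 was at −5.33 without PRMT5i replicate 1, so the size of this difference rests on single libraries.

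BTG2, an antiproliferative gene, gave 15.3 and 15.2 CPM under CDK4/6i, 3.20 and 2.93 CPM under PRMT5i and 9.48 and 10.4 CPM in the control (corrected −1.91 ± 0.16, adjusted p = 4.89e-05). MDM4, whose splicing is known to depend on PRMT5, gave 76.9 and 78.4 CPM under CDK4/6i and 149 and 116 CPM under PRMT5i, a log2 difference of 0.77 without correction and of 0.10 with it (95% interval −0.17 to 0.37, adjusted p = 0.497). MDM2, a ubiquitin ligase and relative of MDM4, went from 0.76 to −0.21 (95% interval −0.51 to 0.09, adjusted p = 0.211). Counts per gene do not resolve the MDM4 isoforms.

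Of 50 core snRNP protein genes, 9 were higher and 12 lower (median −0.03). Of 21 SR protein genes, 5 were higher and 5 lower (median −0.02), where the uncorrected count was 13 higher and 4 lower. These corrected shares are no larger than the 25.5% higher and 25.1% lower of all genes tested. SRSF1, the prototype SR protein, gave 76.0 and 70.4 CPM under CDK4/6i and 46.6 and 48.3 CPM under PRMT5i (corrected −1.66 ± 0.13, adjusted p = 4.26e-05), and the SR protein kinase gene CLK3 was lower by 1.71 ± 0.20 on the log2 scale. SRRM1, a splicing coactivator, ran the other way, at 155 and 149 CPM and 376 and 343 CPM (1.15 ± 0.11), as did TRA2B (0.65 ± 0.12). U2AF2, which recognises the polypyrimidine tract, read −1.35 without and 0.03 with the correction (95% interval −0.25 to 0.30). Of 25 hnRNP genes, 10 were higher and 5 lower, with 4 higher and 5 lower when CDK4/6i replicate 2 was left out. HNRNPH3 gave 23.8 and 23.2 CPM under CDK4/6i and 115 and 137 CPM under PRMT5i (1.87 ± 0.15, adjusted p = 4.87e-05).

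The single genes that separated the drugs furthest were taken from 1977 genes higher and 1795 lower under PRMT5i that were called both ways, had at least 5 CPM on average and showed no overlap of replicates. SCMH1, a Polycomb group protein gene (chr1:41492874-41707978, minus strand, GRCh37), gave 98.4 and 102 CPM under CDK4/6i, 351 and 366 CPM under PRMT5i and 189 and 208 CPM in the control (corrected 2.82 ± 0.15, 7.06-fold, adjusted p = 2.88e-05). The control lay between the drugs, with PRMT5i above it (1.78, adjusted p = 0.000225) and CDK4/6i below (−1.04, adjusted p = 0.0026). TICRR, which helps to fire replication origins (chr15:90118700-90174287, plus strand, GRCh37), gave 9.58 and 10.8 CPM under CDK4/6i, 41.7 and 42.5 CPM under PRMT5i and 17.9 and 19.04 CPM in the control (2.65 ± 0.14). NRG3, a ligand of the ERBB4 receptor (chr10:83634950-84746935, plus strand, GRCh37), gave 2.38 and 3.25 CPM under CDK4/6i against 15.5 and 16 CPM under PRMT5i and 15.7 and 18.03 CPM in the control (2.70 ± 0.29). NRG3 thus differed by 0.16 between PRMT5i and control (adjusted p = 0.665) and was lowered by CDK4/6i (−2.55, adjusted p = 0.00124).

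The 12 highest differences, from 2.57 to 3.09, included DENND1A, an endocytic regulator of RAB35 (2.63 ± 0.24), SDK1, an adhesion molecule of the immunoglobulin family (2.58 ± 0.26), the homeobox gene HOXA3 (2.57 ± 0.33), the aldehyde dehydrogenase gene ALDH8A1 (2.58 ± 0.24) and PCBP1, a poly(C)-binding protein (2.99 ± 0.33). The other members were the pseudogene EEF1DP3, which lies inside FRY on the same strand (3.09 ± 0.26), the non-coding LINC01031 (3.06 ± 0.27) and LINC01003 (2.92 ± 0.23), and the microRNA gene hsa-mir-490 (2.57 ± 0.21). Many of these loci overlap another gene on the opposite strand, SCMH1 with SLFNL1-AS1, TICRR with KIF7, NRG3 with NRG3-AS1, DENND1A with CRB2 and PCBP1 with PCBP1-AS1, and reads of such partners cannot be told apart if the libraries did not keep strand.

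On the CDK4/6i side, SLFN5, a member of the interferon-inducible Schlafen family (chr17:33570090-33600674, plus strand, GRCh37), gave 309 and 326 CPM under CDK4/6i, 75.8 and 81.6 CPM under PRMT5i and 107 and 95.3 CPM in the control. The corrected difference was −3.02 ± 0.12 (8.09-fold, adjusted p = 7.33e-06) and the uncorrected one −2.01. FCRLA, an Fc receptor-like protein gene (chr1:161676762-161684142, plus strand, GRCh37), gave 16.9 and 16.5 CPM under CDK4/6i, 1.79 and 1.82 CPM under PRMT5i and 2.20 and 1.45 CPM in the control (−3.07 ± 0.19, 8.4-fold), so that it was raised by CDK4/6i (3.23, adjusted p = 0.000166) and differed by 0.16 under PRMT5i (adjusted p = 0.601). CGA, the common alpha subunit of the glycoprotein hormones, gave 77.4 and 76.2 CPM under CDK4/6i, 22.0 and 20.5 CPM under PRMT5i and 8.84 and 7.42 CPM in the control (−2.40 ± 0.30).

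HSD3B2, a steroid dehydrogenase gene, had 52.7 and 55.3 CPM under CDK4/6i and 8.31 and 11.2 CPM under PRMT5i (−2.42 ± 0.20), near the 9.41 and 12.6 CPM of the control. ARSA, the lysosomal arylsulfatase, fell from 43.5 and 44.6 CPM to 2.10 and 4.48 CPM (−2.47 ± 0.16), below the 23.1 and 24.9 CPM of the control. The Wnt modulator DKK3 (−2.57 ± 0.15), the glutathione transferase gene GSTM2 (−2.46 ± 0.19), the sugar transporter gene SLC50A1 (−2.34 ± 0.19), C7orf49 (−2.45 ± 0.25) and CDR1 (−2.34 ± 0.21) completed the list of 12 with the mitochondrial ribosomal RNAs above. GSTM2 shares sequence and strand with GSTM1, and DKK3 overlaps USP47, so their own levels are less certain.

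**Figure D4:**
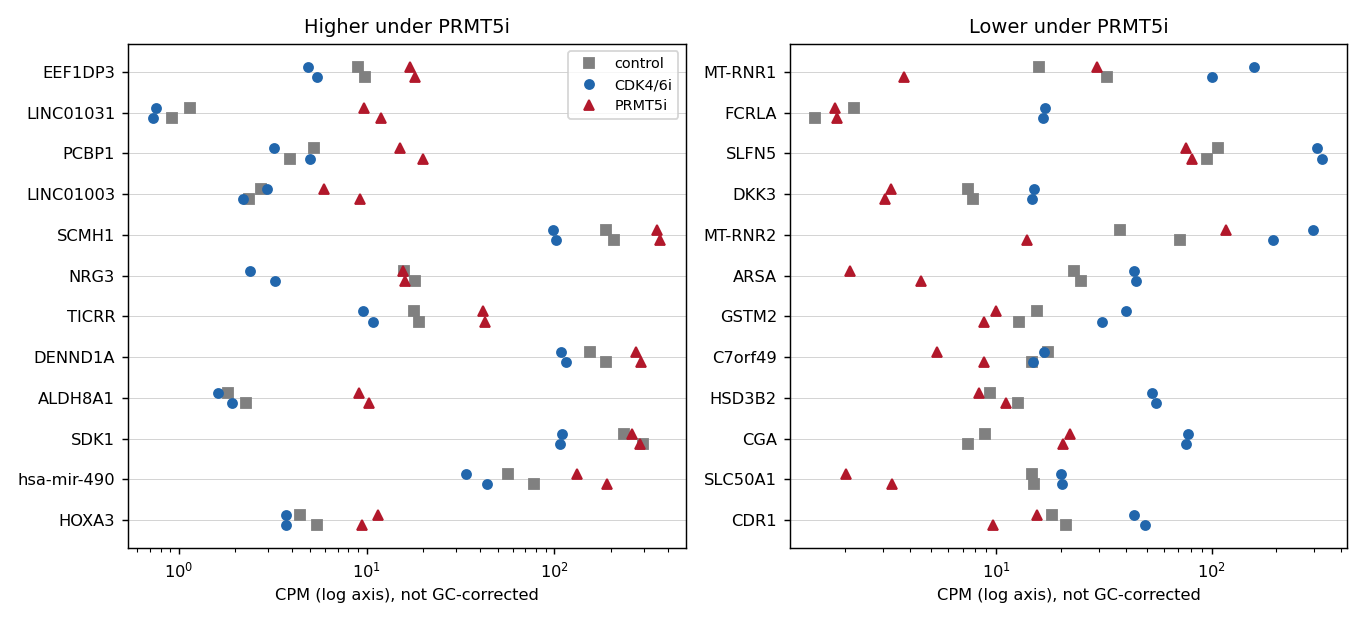
CPM, counts scaled to library size (log axis), of the 12 highest and 12 lowest genes in the 72-hour CHL1 libraries, 1 point per library, coloured by group. The PRMT5i points lie above the CDK4/6i points in the first set and below them in the second, and the control points give the baseline. These CPM are not GC-corrected, so the distance between PRMT5i and control points includes the GC trend.

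Growth factor signalling genes stood on both sides, beside 25.5% higher and 25.1% lower of all genes tested. DUSP4, the nuclear phosphatase that dampens ERK, gave 382 and 356 CPM under CDK4/6i, 111 and 125 CPM under PRMT5i and 77.7 and 86.3 CPM in the control (corrected −1.13 ± 0.24, adjusted p = 0.00432). It was raised over the control by CDK4/6i (2.17), and its difference between PRMT5i and the control was 1.04 with the correction (adjusted p = 0.0103) and 0.52 without it (adjusted p = 0.0917). Of 19 MAPK feedback genes, 3 were higher and 7 lower under PRMT5i, and 1 and 3 when CDK4/6i replicate 1 was left out. ERBB3, a neuregulin receptor, was lower under PRMT5i, at 81.0 and 92.2 CPM against 248 and 232 CPM (−0.81 ± 0.14). NRG4, another neuregulin, was higher by 1.41 ± 0.18, and EGF differed by 0.13 without and −0.50 with the correction (95% interval −1.01 to 0.01, adjusted p = 0.0914).

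Among lineage genes, PAX3, the transcription factor upstream of MITF, gave 86.5 and 96.1 CPM under CDK4/6i, 244 and 239 CPM under PRMT5i and 124 and 140 CPM in the control (corrected 1.74 ± 0.13, adjusted p = 3.74e-05). DCT, dopachrome tautomerase of melanin synthesis, gave 33.7 and 33.5 CPM, 133 and 118 CPM and 88.8 and 65.2 CPM (1.00 ± 0.17). S100B, a calcium-binding melanoma marker, was lower under PRMT5i, at 13.99 and 10.51 CPM against 51.3 and 33.7 CPM (−1.08 ± 0.37, adjusted p = 0.0364). That call was kept only without CDK4/6i replicate 2, and the adjusted p lay between 0.0523 and 0.216 without any other library. Of the 11 lineage genes tested, 4 were higher and 3 lower, beside 25.5% and 25.1% of all genes tested.

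Beyond base composition, the number of introns went with the difference. After correction, genes whose longest transcript has 1 or 2 introns had a median log2 difference of −0.20 (17.2% up-regulated, 33.5% down-regulated), and those with 15 to 24 introns one of 0.15 (35.3% and 17.2%). In A375 the medians of the intron classes lay between −0.01 and 0.06. By transcript length, the corrected medians of 10 classes lay between −0.08 and 0.07. Ribosomal protein genes are short and have few introns, and the part of gene function in these medians was not tested. Genes within a class are not independent replicates, and these medians are given as a description.

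In A375, PRMT5i against CDK4/6i gave 4571 DEGs of 20705 genes (22.1%), 2364 (11.4%) up-regulated and 2207 (10.7%) down-regulated, and 1507 and 1368 when CDK4/6i replicate 1 or 2 was left out. The A375 count was 7167 with a replicate block and 1129 with all 10 A375 libraries. The 72-hour libraries of the lines carry the names of different library sets, so line and library set cannot be told apart. Of the 4276 CHL1 genes called both ways, 1364 (31.9%) were called in the same direction in A375 (682 up and 682 down). A further 210 went the other way. Being called both ways includes the uncorrected CHL1 call, and the A375 calls are uncorrected too. The A375 difference also ran with GC content, with a median of 0.183 in the poorest class and −0.13 in the richest. The part of base composition in the agreement between the lines was not tested. Of the 12835 genes of the corrected CHL1 fit, 3669 were called in A375 in either direction. The 1364 are 37.2% of these and 29.8% of all 4571 A375 calls. The difference between the drugs itself differed between the lines for 4023 of 11908 genes (33.8%, edgeR interaction with the GC correction).

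Mitosis and antigen presentation moved the same way in both lines. In A375, 31 of 38 kinetochore and kinesin genes and 12 of 16 mitotic kinases were up-regulated, with medians of 0.57 and 0.64, and 9 of 15 MHC class I genes were down-regulated, with a median of −0.56. The size of the difference still differed between the lines for 9 of 38, 6 of 16 and 4 of 14 of these genes. The share over all 11908 genes was 33.8%. HLA-B was lower by 2.09 on the log2 scale in A375 (adjusted p = 4.47e-06). FCRLA (−1.68) and SLFN5 (−1.03) were also lower there, and GMNN (1.22), PRIM1 (1.61) and CCNA2 (0.96) higher. The lysosome list was lower in A375 too, with 14 of 31 genes down-regulated and 1 up-regulated. Of all 20705 genes in A375, 11.4% were up- and 10.7% down-regulated.

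Other lists also held genes whose difference between the drugs differed between the lines. Over all 11908 genes tested, it was more negative in CHL1 for 15.8% and more positive for 18%. Of 71 ribosomal protein genes, 42 differed between the lines, all with the more negative difference in CHL1, and in A375 1 of 82 was down- and 3 were up-regulated. Of 65 oxidative phosphorylation genes, 32 had the more negative difference in CHL1 and 5 the more positive one, and in A375 3 were lower and 4 higher. The difference was more negative in CHL1 for 9 of 17 glycolysis genes, 11 of 19 ATF4 response genes and 17 of 51 replication-dependent histone genes, and more positive for none. MDM2 (0.94, adjusted p = 0.00023) and MDM4 (0.72, adjusted p = 0.00262) were higher under PRMT5i in A375. Of 52 core snRNP genes, 24 were higher in A375, and 19 of 50 had the more negative difference in CHL1. BTG2, lower by 1.91 on the log2 scale in CHL1, was higher by 0.90 in A375 (adjusted p = 0.0118), and CDK4 differed by −0.03 there (adjusted p = 0.907).

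**Figure D5:**
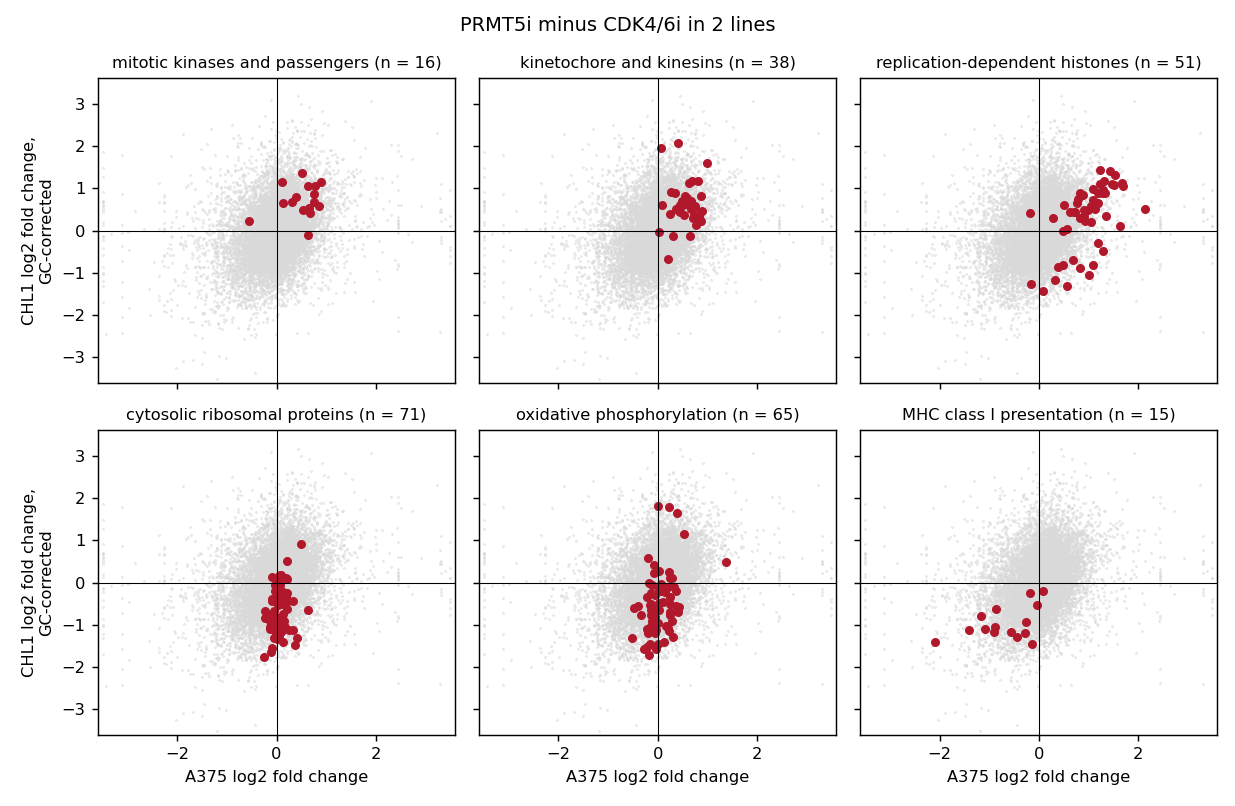
GC-corrected log2 difference PRMT5i minus CDK4/6i in CHL1 (vertical axis) against the uncorrected difference in A375 (horizontal axis), both clipped at −3.5 and 3.5, for all genes in grey and the members of 6 gene lists in colour. Mitotic kinases lie mostly above 0 on both axes and MHC class I genes below 0 on both, while ribosomal protein genes lie mostly below 0 in CHL1 and near 0 in A375.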

How the data were processed

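Per the labels and the methods of the study, poly(A)-selected RNA was sequenced in paired reads, aligned to GRCh37 with HISAT2 2.0.4 and counted with HTSeq 0.11.2 according to the submitters' processing notes. The deposited table holds whole-number read counts per gene for 18 libraries, made and filtered for low expression by the authors. Although its name calls them normalised, the totals differ between libraries. The methods give default HTSeq settings, which count by strand, but do not say whether the kit (TruSeq RNA) keeps strand.

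The counts were scaled by TMM to CPM (counts scaled to library size) and tested with edgeR 4.0.16 (R 4.3.3, quasi-likelihood test, Benjamini-Hochberg adjustment over all genes tested, threshold 0.05) on the 8 CHL1 libraries in 4 groups, and on the 6 A375 libraries of 72 hours. For the GC correction, a loess curve (span 0.4) of each library's log2 CPM deviation from the mean of the libraries was fitted on GC content of the longest GENCODE transcript (GRCh37) and used as an offset. A GC value was found for 12835 genes, 88.5% of those that averaged 1 CPM or more. CPM values in the text are not GC-corrected. Errors are standard errors of the log2 difference, and intervals are at 95%. Corrected differences between the drugs are quoted unless said otherwise, and those between drug and control are also corrected, whereas A375 values are uncorrected.

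The 47 gene lists and the members described were chosen with earlier results of these data known. Named genes are the drug targets, their partners and genes the study names, the 12 highest and 12 lowest corrected differences among genes called in the same direction both ways with at least 5 CPM on average and replicates that do not overlap, up to 2 genes in each direction per list called both ways, and 5 genes called in opposite directions. The fit was run on simulated data with the same linear GC trend in both PRMT5i libraries and few changed genes. That setting is simpler than these data, so it cannot show how well the correction works here. Alternatives were DESeq2 1.42.0, limma 3.58.1, other scalings, filters, curves and libraries, a replicate block and leaving out each library. 1 gene and the list built on it are not reported here.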

Additional observations from a re-analysis of the deposited data

Results flagged for a closer look

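The results below are those whose difference between the drugs itself differed between CHL1 and A375 in an edgeR interaction test. It did for 9273 genes without and 4023 with the GC correction. Of the 176 named genes, 93 did so both ways, and 11 of them were called in opposite directions in the 2 lines. Line and library set cannot be told apart in this comparison, and no explanation of it was tested. All values are GC-corrected log2 differences, CHL1 minus A375.

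Among the drug targets and genes the study names, the values were −0.80 for CDK4, −0.83 for PRMT5, 0.53 for E2F3 and 1.07 for EGF. Among the genes furthest up under PRMT5i in CHL1 they were 3.14 for EEF1DP3, 1.28 for LINC01031, 2.49 for PCBP1, 2.18 for LINC01003, 1.88 for SCMH1, 2.97 for NRG3, 1.96 for TICRR, 2.26 for DENND1A, 2.31 for SDK1, 2.09 for hsa-mir-490 and 2.62 for HOXA3. Among those furthest down they were −1.34 for FCRLA, −1.84 for SLFN5, −1.82 for DKK3, −0.90 for ARSA, −1.95 for GSTM2, −2.27 for C7orf49 and −1.88 for SLC50A1.

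The genes called in opposite directions in the lines were, among those of the cell cycle, MCM4 (−1.26), CHAF1B (−1.99) and CKS1B (−1.61), all lower under PRMT5i than under CDK4/6i in CHL1 and higher in A375. The antiproliferative gene BTG2 (−2.78), the splicing regulator HNRNPL (−0.85) and the sterol reductase gene TM7SF2 (−2.55) went the same way. So did the stress and immediate early genes ATF3 (−2.61), JUN (−1.79) and CYR61 (−1.90), although JUN was not called in CHL1 without CDK4/6i replicate 2 (−0.84, adjusted p = 0.116) or PRMT5i replicate 1 (−0.82, adjusted p = 0.109). The proton pump subunit ATP6V1H (1.18) and the basement membrane collagen COL4A5 (2.40) were higher under PRMT5i in CHL1 and lower in A375.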

How the results depend on the processing

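All DEG counts rest on 2 libraries a group. The GC-corrected count of 6489 was 6329 with DESeq2, 6637 with limma and between 6333 and 6582 under the other scalings, curve spans, added length term and library sets, and 5778 for genes of at least 5 CPM. It became 1860 when a log2 difference of at least 1 was also asked for. Leaving out 1 library gave 4105 to 7109 for it, 9399 to 12159 for the uncorrected 11958, 1368 to 4520 for A375 and 1981 to 4244 for A375 with the correction, 7474 to 9427 for the difference between lines and 2671 to 3781 for that with the correction. Of the 6489 genes, 63% were called in the same direction without CDK4/6i replicate 1 and 80.4% without PRMT5i replicate 2, and none in the opposite one in any of the 4 cases. The uncorrected count became 6489 under the GC correction. With all 10 A375 libraries the A375 count became 1129, and 2564 with the correction. Replicate numbers did not pair the CHL1 drug groups (correlation of deviations −0.01), and a replicate block gave 11889 uncorrected and 6630 corrected DEGs. The correlation with the CHL1 control was 0.441 for CDK4/6i at 72 hours and 0.175 for PRMT5i. Differences from the control were fitted without pairing. In A375, correlations between groups were 0.21 to 0.47 over 2 numbers, and the block gave 7167 and 6215 DEGs.

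Of the log2 differences of named genes under all alternatives, 1314 kept direction and call, 68 lost and 9 gained the call, and 17 turned. Without the GC correction, CDK6 was 0.63, COPRS −0.40, MDM2 0.76, E2F2 −0.46, E4F1 −1.06, EGF 0.13, U2AF2 −1.35, MIR3648 −1.54, SH2B2 −0.96, MIR3687 −1.41, SLC7A5P1 −0.95 and MEX3D −0.86. Leaving out 1 library, RIOK1 ran from −0.015 to 0.31, MDM4 from −0.052 to 0.24, WDR77 from −0.21 to 0.0025 and U2AF2 from −0.067 to 0.13. The cause of these changes was not tested.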

Other observations

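Further gene families were counted in CHL1 after the GC correction, beside 25.5% of all genes tested higher and 25.1% lower. Of 407 zinc finger ZNF genes, 75 were higher and 94 lower under PRMT5i, both smaller shares than over all genes, against 182 higher and 89 lower of 442 without correction, and 45 and 56 without CDK4/6i replicate 1. ZNF367, which is expressed in cycling cells, gave 17.1 and 19.3 CPM under CDK4/6i and 69.4 and 85.1 CPM under PRMT5i (corrected 1.65 ± 0.22). Of 218 solute carriers, 30 were higher and 72 lower, and 17 and 47 without CDK4/6i replicate 1. Of 34 proteasome subunit genes, 3 were higher and 14 lower, and 9 in all were called without CDK4/6i replicate 2. PSMB4, of the core particle, gave 176 and 166 CPM and 44.8 and 59.5 CPM (−1.62 ± 0.16).

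Among secreted and matrix genes, IGFBP5, an insulin-like growth factor binding protein, gave 1137 and 1202 CPM under CDK4/6i, 243 and 310 CPM under PRMT5i and 1042 and 1311 CPM in the control (−1.51 ± 0.21). PLAT, tissue plasminogen activator, was lower by 1.81 ± 0.28 on the log2 scale. LAMB2, a laminin chain, gave 350 and 334 CPM and 42.5 and 83.5 CPM (−1.15 ± 0.12). COL4A5 and LAMA2 were higher under PRMT5i, by 1.56 ± 0.17 and 1.06 ± 0.22. RBM15, an adaptor of the RNA methylation complex, gave 100 and 106 CPM and 215 and 245 CPM (2.08 ± 0.19), and RBM8A, of the exon junction complex, 18.3 and 18.3 CPM and 9.22 and 8.46 CPM (−1.58 ± 0.14).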
